A study of Mus musculus with 32 samples.

Results

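Imprinted genes were examined as a group of 40 named mouse genes that are known to be expressed mainly from the allele inherited from 1 parent. They were picked by name, as members of the well studied imprinted clusters, with earlier results of these data known. Of the 40, 38 were matched to gene identifiers among the 31053 genes of the deposited counts, and 31 passed the filter on low counts that left 12556 genes for testing. The list holds 23 genes known to be expressed from the paternal allele, 16 from the maternal allele and 1 (Gnas) with transcripts from both, in 18 clusters or single loci. Of the tested members, 19 are paternally expressed and 11 maternally expressed. The levels of Rian and Peg13 were not analysed here, because their identifiers in the annotation had no match among the counted genes.

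The cells were E14 mouse embryonic stem cells grown without serum in N2B27 medium under either of 2 regimes. The regime called 2i combines CHIR99021 at 3 uM, which blocks GSK3, with PD0325901 at 1 uM, which blocks MEK. The regime called 2iL contains both inhibitors and the cytokine LIF. RNA was taken at 0 h, before withdrawal, and after the inhibitors (and LIF) were withdrawn, at 12, 24, 36, 48, 60, 72 and 84 h for 2i and at 24, 36, 48, 60, 72, 84 and 96 h for 2iL. Each of the 16 groups had 2 libraries, and 2iL at 36 h is represented by 1, since the other held 7298 counts and was left out. All groups come from 1 cell line, and the labels do not say how the 2 libraries of a group arose, so the p-values measure only the spread between these libraries.

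Genomic imprinting marks 1 parental copy of a gene with DNA methylation, laid down in the germ line and kept through the wave of demethylation that follows fertilisation. The marked region controls the genes around it, often through a long noncoding RNA, so that neighbours are expressed from opposite parental copies. The protein ZFP57 binds the methylated sequence TGCCGC and, with TRIM28, keeps the mark in embryonic stem cells, and long culture of such cells under MEK inhibition is known to erode imprints. Allele and methylation were not measured here. The expressed allele named for a gene, also in counts and medians by allele, is the listed one. It can differ between tissues and was not checked in these cells. The values are total RNA of both copies, and levels of a cluster are described without regard to which copy gave the reads.

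The 31 libraries held between 1122648 and 3438514 counts in genes (median 1980949), so that 3 counts, the limit that a count of 0 allows, correspond to 0.872 to 2.67 CPM (counts scaled to a library of 1000000). Intervals and limits of this kind cover counting error only, and a limit covers that of the count of 0 alone. Levels are CPM scaled with edgeR's TMM factors, and differences are log2 fold changes with their standard error (SE). All 10 embryonic stem cell markers on the list used had counts in every group. Their summed level was 2343 and 2513 CPM in 2iL at 0 h and 1846 and 1995 CPM in 2i at 0 h, and it was 389 and 418 CPM at 96 h of the 2iL course and 335 and 349 CPM at 84 h of the 2i course. The 8 neural markers, all with counts, summed to 150 and 158 CPM in 2iL and 94.5 and 109 CPM in 2i at 0 h, 407 and 538 CPM at 96 h of the 2iL course, and 643 and 729 CPM at 84 h of the 2i course. Of 10 fibroblast markers 5 to 9 had counts in the groups at 0 h, 72 h and the last time, with sums between 1.99 and 30.04 CPM and S100a4 at 3 or fewer counts in all libraries. The 10 primitive endoderm markers summed to between 4.58 and 8.24 CPM at 0 h and between 43.6 and 61.7 CPM at the last times, with Sox7 at 3 or fewer counts. The 8 markers of mesoderm and streak summed to between 17.9 and 23.1 CPM at 0 h. In the 2i course they summed to 46.9 and 54.0 CPM at 72 h and to 28.4 and 31.1 CPM at 84 h. In the 2iL course they summed to 4.11 and 7.75 CPM at 72 h and to 8.44 and 8.56 CPM at 96 h. Fewer cells of a type and less RNA per cell cannot be told apart in such bulk libraries, and the part of these changing markers in the results that follow was not tested.

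Before withdrawal, 2i cells held more RNA of several paternally expressed genes than 2iL cells. Of the 31 tested members, 10 differed at an adjusted p under 0.05 (edgeR quasi-likelihood test, Benjamini-Hochberg over all tested genes), against 8.0% of all tested genes. The share for higher calls among all genes was 3.75% and that for lower calls 4.24%, and 9 members were higher in 2i (Peg10, Sgce, Ascl2, Cdkn1c, Peg12, Mest, Snrpn, Zdbf2 and Peg3) and 1 was lower (Slc38a4). Among paternally expressed members 8 of 19 tested differed, and among maternally expressed members 2 of 11. The median log2 difference of the 31 tested members was 0.19 (0.11 with genes at or near 0 counts set to their bound or counting ratio), and that of all tested genes was 0.01. The members that failed the filter are not in these figures. The count was 6 on leaving out 2iL 0 h replicate 1 and 5 on leaving out 2i 0 h replicate 1, and 4 calls (Peg10, Cdkn1c, Mest and Snrpn) were kept whichever of the 4 libraries was left out.

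**Figure D1:**
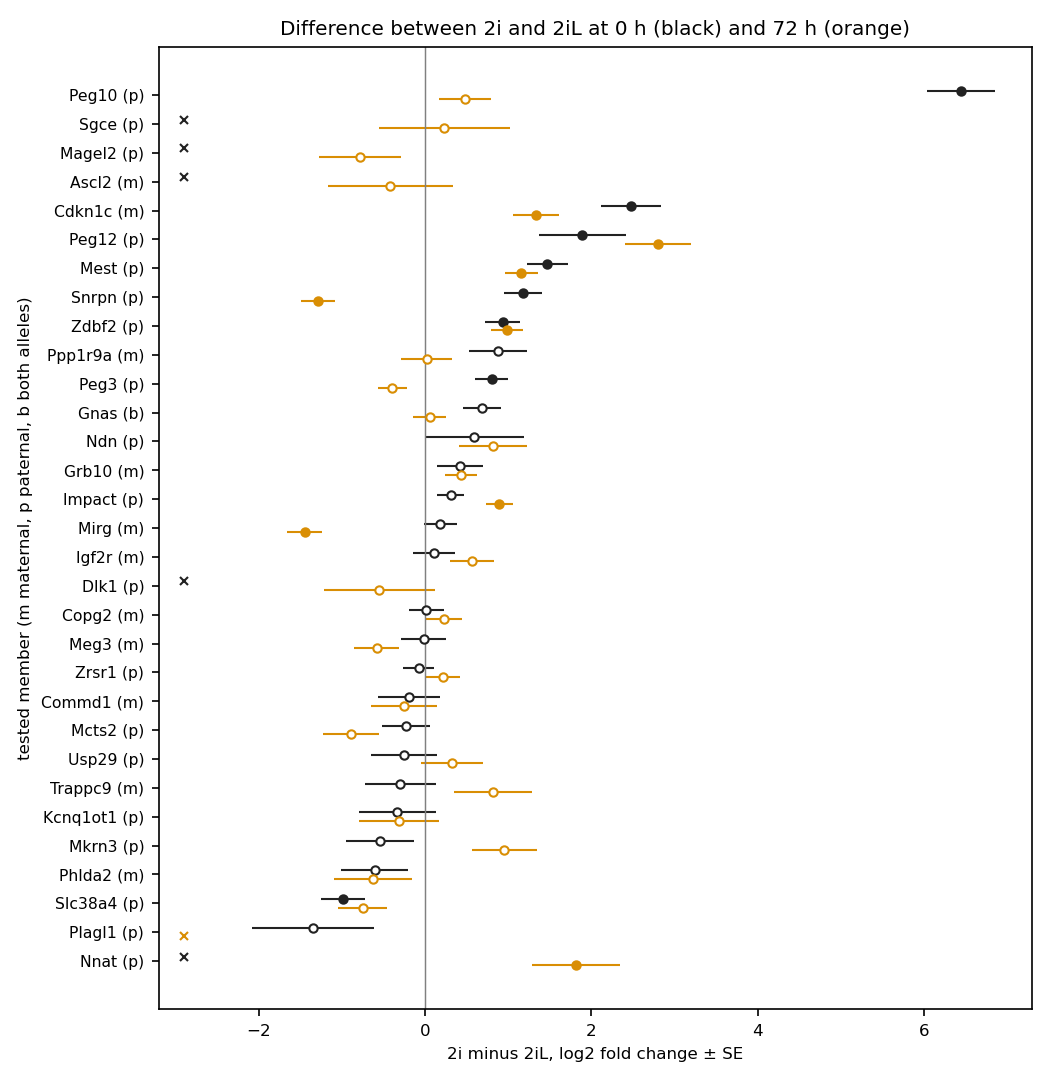
Difference between 2i and 2iL for the 31 tested imprinted genes at 0 h (black) and at 72 h after withdrawal (orange), as log2 fold change (2i minus 2iL) with its SE on the horizontal axis. Filled points passed an adjusted p of 0.05, and crosses at the left edge stand for 6 values with 3 or fewer counts in a group, for which no fitted fold is drawn. Peg10 lay at 6.45 at 0 h and at 0.48 at 72 h, while Snrpn lay at 1.18 at 0 h and at -1.29 at 72 h.

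The largest fitted difference among the members was that of Peg10, a gene derived from a retrotransposon that the placenta needs, at chr6:4747306-4760517 on the plus strand (mm10). It was at 1.67 and 0.443 CPM in 2iL and at 91.7 and 107 CPM in 2i. The groups lay far apart, with a log2 difference of 6.45 (SE 0.40, adjusted p = 1.5e-12), which was 7.61 on leaving out 2iL 0 h replicate 1 and 5.81 on leaving out 2iL 0 h replicate 2. Sgce, which encodes epsilon-sarcoglycan and starts 99 bases from Peg10 on the opposite strand, had 1 count in 2iL and 20 counts in 2i at 0 h. In the libraries this was 0 and 0.443 CPM in 2iL against 5.56 and 3.30 CPM in 2i, a ratio of 21.5 (95% counting interval 3.44 to 890, adjusted p = 0.0081). The Sgce call was lost on leaving out 2iL 0 h replicate 1 (adjusted p = 0.145), on leaving out 2i 0 h replicate 1 (adjusted p = 0.116) and with DESeq2 (adjusted p = 0.109).

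After withdrawal the Peg10 levels of both courses moved towards each other. In the 2i course Peg10 was at 32.2 and 24.5 CPM at 12 h and at 7.35 and 4.65 CPM at 24 h, with log2 changes from 0 h of -1.78 (SE 0.27, adjusted p = 2.9e-05) and -4.07 (SE 0.31, adjusted p = 2.4e-11). In the 2iL course it was at 6.96 and 12.7 CPM at 24 h, a rise of 3.08 (SE 0.60, adjusted p = 0.00055), which was 4.25 on leaving out 2iL 0 h replicate 1 and 2.44 without replicate 2. From 24 h onwards the libraries of both courses lay between 4.65 and 32.8 CPM. At 84 h Peg10 stood at 32.8 and 27.4 CPM in the 2i course, still 1.72 below its own 0 h on the log2 scale (SE 0.26, adjusted p = 4e-06), and at 15.6 and 21.5 CPM in the 2iL course. The change from 0 h differed between the courses at each of the 6 shared times, by 7.15 at 24 h and by 5.76 at 84 h (SE 0.55, adjusted p = 5.3e-09). Leaving out 2iL 0 h replicate 1 or 2 moved the difference at 84 h to 6.92 or 5.13.

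Sgce fell early in the 2i course, as its neighbour did, and rose late in the 2iL course. It had 0 counts at 12 h of the 2i course, at least 3.81-fold lower than at 0 h (adjusted p = 0.012), a call that was lost on leaving out 2i 0 h replicate 1 (adjusted p = 0.0838) and without either 12 h library (adjusted p = 0.109 and 0.0676). Later in the 2i course Sgce was at 3.47 and 3.00 CPM at 60 h and at 1.26 and 3.22 CPM at 84 h. Its later course there thus did not track that of Peg10. In the 2iL course Sgce was at 0 CPM in the libraries of 24 and 36 h, at 2.04 and 2.57 CPM at 72 h and at 11 and 10.1 CPM at 96 h. The 96 h libraries lay above every other library of either course, with a ratio to 0 h of 48.7 (95% counting interval 8.29 to 1970, adjusted p = 2.7e-05). Across the 31 libraries the correlation of Peg10 with Sgce on the log2 scale was 0.46 (Spearman 0.52), a description over libraries that share groups and times. Ppp1r9a, which encodes the synapse protein neurabin-1 and is maternally expressed in some tissues, rose over the 2iL course from 11.2 and 10.6 CPM to 69.5 and 44.3 CPM at 96 h (log2 change 2.35, SE 0.32, adjusted p = 6.8e-07). Asb4, a maternally expressed gene of the same cluster, had 66 counts in all libraries together and was not tested.

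**Figure D2:**
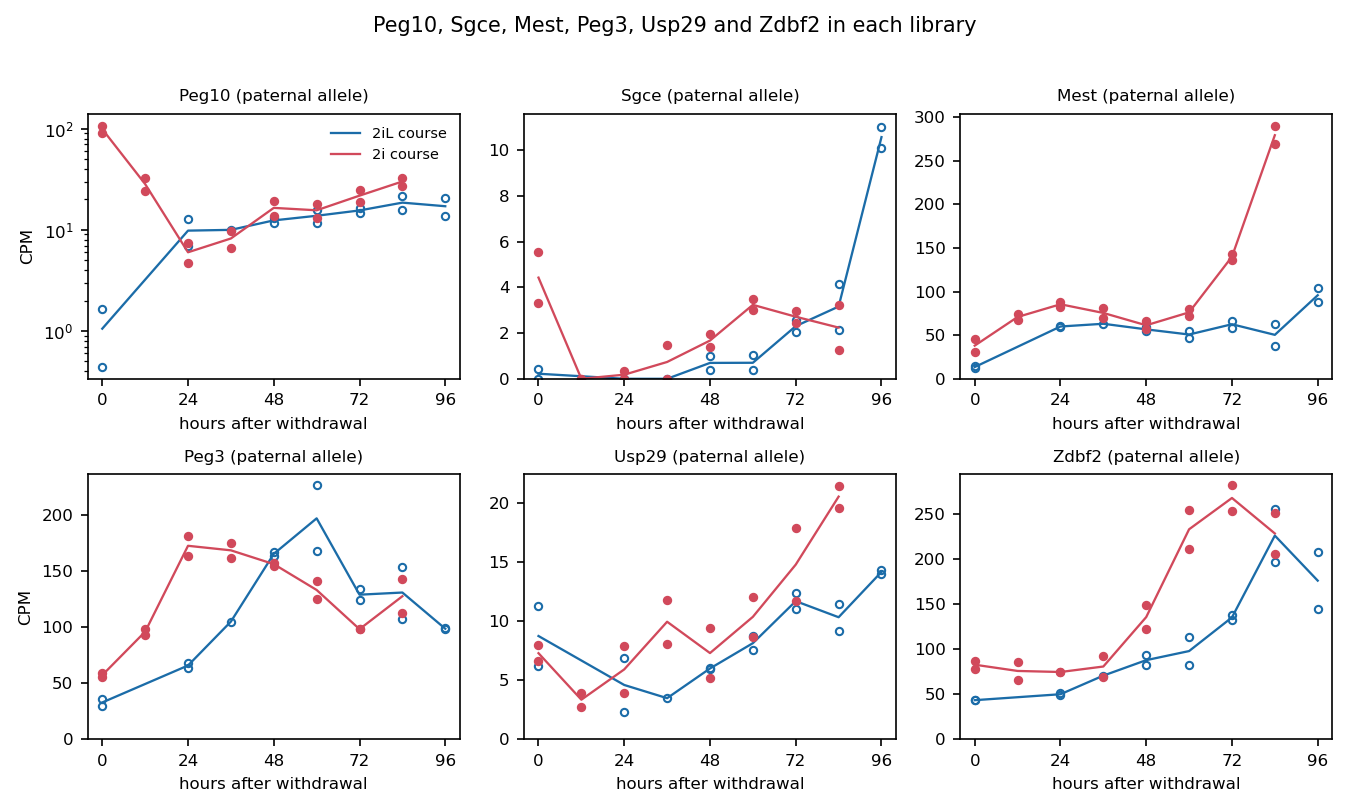
Levels of 6 paternally expressed genes in each library, in CPM, against hours after withdrawal, with open blue points for the 2iL course, filled red points for the 2i course and lines through the group means. The Peg10 axis is logarithmic and the others start at 0; the Peg10 libraries are apart at 0 h and between 4.65 and 32.8 CPM from 24 h on, and Mest reaches 290 and 269 CPM at 84 h of the 2i course.

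Mest, which encodes a hydrolase-like protein of the embryonic mesoderm, was, like Peg10 and Snrpn, a paternally expressed gene whose difference at 0 h was kept whichever library was left out. It was at 15 and 12.0 CPM in 2iL and at 31 and 45.1 CPM in 2i, without overlap (log2 difference 1.47, SE 0.25, adjusted p = 0.0001). After withdrawal from 2iL it was already at 60.3 and 59.6 CPM at 24 h (log2 change 2.15, SE 0.25, adjusted p = 2.4e-07) and stayed between 37.7 and 66.5 CPM until 84 h, before reaching 87.7 and 104 CPM at 96 h. In the 2i course it reached 88.2 and 82.7 CPM at 24 h, 136 and 144 CPM at 72 h and 290 and 269 CPM at 84 h (log2 change from 0 h 2.89, SE 0.20, adjusted p = 1.7e-12). The 84 h libraries of the 2i course were the highest of all 31 for this gene. The change over the shared times differed between the courses (joint adjusted p = 1.2e-06). Copg2, a coat protein gene whose 3' end overlaps that of Mest on the opposite strand, lay between 43.9 and 111 CPM and did not differ at 0 h (log2 difference 0.01, SE 0.21). The sources used here do not say whether counting used the strand, and reads of Mest and Copg2 in the overlap cannot be told apart if it did not.

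The promoter window of Mest is shown because it holds the ZFP57 sequence more than once, as does the far upstream start of Zdbf2, described further on. Windows of 300 bases, from 250 bases before to 50 after each RefSeq start (GRCm38.p6), were searched for TGCCGC on both strands. The search covered 32 members, with 51 windows in all. Impact, Peg10 and Sgce were among the members left out of the search, so the members' share does not describe them. The sequence occurred in 13 of the 51 windows (25.5%), in 12 members, against 11.6% of 32851 windows of all genes. Overlapping windows were counted separately, and the Mest windows that start at 30737800 and 30737803 hold the same 2 matches. The members' windows had a median of 13 CpG dinucleotides against 7 in all windows. TGCCGC itself contains a CpG, and the shares were not matched for CpG content. Capitals mark TGCCGC or its reverse complement GCGGCA, and a match is a description of the letters, not a bound site. The Mest window lies at chr6:30737800-30738099 on the plus strand and the Zdbf2 window at chr1:63200108-63200407 on the plus strand. The Zdbf2 window holds 3 matches, and 0.234% of all windows hold 3 or more.
Mest: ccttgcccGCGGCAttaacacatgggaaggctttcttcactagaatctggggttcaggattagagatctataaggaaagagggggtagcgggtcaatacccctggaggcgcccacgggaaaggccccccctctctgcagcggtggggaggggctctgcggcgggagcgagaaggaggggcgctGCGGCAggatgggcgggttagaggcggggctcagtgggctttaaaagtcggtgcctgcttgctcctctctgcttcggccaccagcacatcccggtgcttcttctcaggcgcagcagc
Zdbf2: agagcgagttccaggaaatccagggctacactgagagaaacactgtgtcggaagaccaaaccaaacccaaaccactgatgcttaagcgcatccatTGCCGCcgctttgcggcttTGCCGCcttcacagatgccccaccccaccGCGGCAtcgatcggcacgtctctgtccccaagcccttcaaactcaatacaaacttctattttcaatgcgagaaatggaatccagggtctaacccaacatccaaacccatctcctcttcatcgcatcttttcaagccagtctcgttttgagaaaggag

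Peg3, a paternally expressed zinc finger gene known for its part in growth and maternal behaviour, rose in both courses on different schedules. At 0 h it was at 36.2 and 29.2 CPM in 2iL and at 58.8 and 55.5 CPM in 2i (log2 difference 0.80, SE 0.20, adjusted p = 0.0073), a call that was lost on leaving out 2iL 0 h replicate 2 (adjusted p = 0.175) or 2i 0 h replicate 1 (adjusted p = 0.087). After withdrawal from 2i it was at 164 and 182 CPM at 24 h (log2 change 1.59, SE 0.18, adjusted p = 7.6e-08) and at 98.2 CPM in both libraries at 72 h. In the 2iL course it was at 68.1 and 63.5 CPM at 24 h, at 227 and 168 CPM at 60 h (log2 change 2.59, SE 0.19, adjusted p = 4.4e-12) and at 98.1 and 99.2 CPM at 96 h. The highest group mean thus came at 24 h in the 2i course and at 60 h in the 2iL course. In the 2i course the libraries of 36 h, at 175 and 162 CPM, overlapped those of 24 h. The change from 0 h was larger in the 2iL course at 72 h by 1.20 (SE 0.27, adjusted p = 0.0028).

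Usp29, which is named for its likeness to ubiquitin peptidases and is also paternally expressed, starts 147 bases from Peg3 on the opposite strand. Both RefSeq windows share 263 bases. Its level was 11.2 and 6.20 CPM in 2iL and 7.94 and 6.59 CPM in 2i at 0 h, with overlapping groups. At 24 h of the 2i course, where the group mean of Peg3 was highest, Usp29 was at 3.92 and 7.87 CPM (log2 change -0.26, not past the threshold). It reached 19.6 and 21.5 CPM at 84 h (log2 change 1.48, SE 0.37, adjusted p = 0.0023), above all other libraries. Across the 31 libraries the correlation of Peg3 with Usp29 was 0.11 (Spearman 0.01), as a description. Zim1, the maternally expressed gene of the cluster, had 18 counts in all and was not tested. The Peg3 window, chr7:6730370-6730669 on the minus strand, has no TGCCGC on either strand, and it is shown with its 13 CpG dinucleotides in capitals because both genes start from it.
Peg3: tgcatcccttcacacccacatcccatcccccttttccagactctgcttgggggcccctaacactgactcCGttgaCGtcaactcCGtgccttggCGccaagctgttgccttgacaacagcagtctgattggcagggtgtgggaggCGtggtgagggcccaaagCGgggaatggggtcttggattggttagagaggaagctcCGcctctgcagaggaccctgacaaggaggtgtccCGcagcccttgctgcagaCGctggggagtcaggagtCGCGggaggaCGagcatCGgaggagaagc

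The Snrpn cluster, the mouse counterpart of the Prader-Willi region, has only paternally expressed genes among the members, and they did not share 1 time course. Snrpn, which encodes a protein of the splicing machinery, was at 23.7 and 24.4 CPM in 2iL and at 53.2 and 56.0 CPM in 2i at 0 h (log2 difference 1.18, SE 0.23, adjusted p = 0.00075). In the 2i course it rose to 189 and 188 CPM at 24 h (log2 change 1.79, SE 0.20, adjusted p = 8.8e-08) and to 208 and 218 CPM at 36 h. It was at 47.4 and 61.7 CPM at 84 h, on either side of the libraries of 0 h. After withdrawal from 2iL it rose to 229 and 197 CPM at 72 h (log2 change 3.15, SE 0.22, adjusted p = 1.7e-12) and was at 98.7 and 155 CPM at 96 h, above both libraries of 0 h. The change from 0 h was larger in the 2iL course by 1.39 at 60 h, 2.47 at 72 h (SE 0.31, adjusted p = 7.9e-07) and 2.91 at 84 h (SE 0.31, adjusted p = 5.1e-08), and the difference at 24 h was 0.12 and did not pass. Snrpn shares its strand and exons with Snurf, listed at 0 counts, and with Gm38393, which had 2109 counts against 8204 for Snrpn, and how reads were divided between them is not stated.

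Peg12, a relative of the GSK3-binding protein FRAT, fell early and rose late in the 2i course. It was at 8.74 and 11 CPM at 0 h, had 0 counts in both libraries of 12 h, and was at least 8.0-fold lower there (adjusted p = 0.00046). It was at 0.980 and 0.716 CPM at 24 h, 11.7 and 13 CPM at 60 h, 52.8 and 32.7 CPM at 72 h and 83.3 and 71.9 CPM at 84 h (log2 change from 0 h 2.98, SE 0.35, adjusted p = 8.9e-08). The 2iL libraries of Peg12 were at 1.67 and 3.54 CPM at 0 h. The libraries of 24 h disagreed, at 0 and 7.81 CPM, and those of 48 h were at 0.659 and 0.802 CPM. At 96 h it was at 25.3 and 25.7 CPM (log2 change 3.27, SE 0.46, adjusted p = 1.4e-06), a value of 3.91 on leaving out 2iL 0 h replicate 2. At 72 h Peg12 stood 2.80 higher in the 2i course (SE 0.39, adjusted p = 7.4e-06). The difference between 2i and 2iL at 0 h of 1.89 (SE 0.53, adjusted p = 0.020) was lost on leaving out 2iL 0 h replicate 1 (adjusted p = 0.279) or either 2i library (adjusted p = 0.0624 and 0.121).

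**Figure D3:**
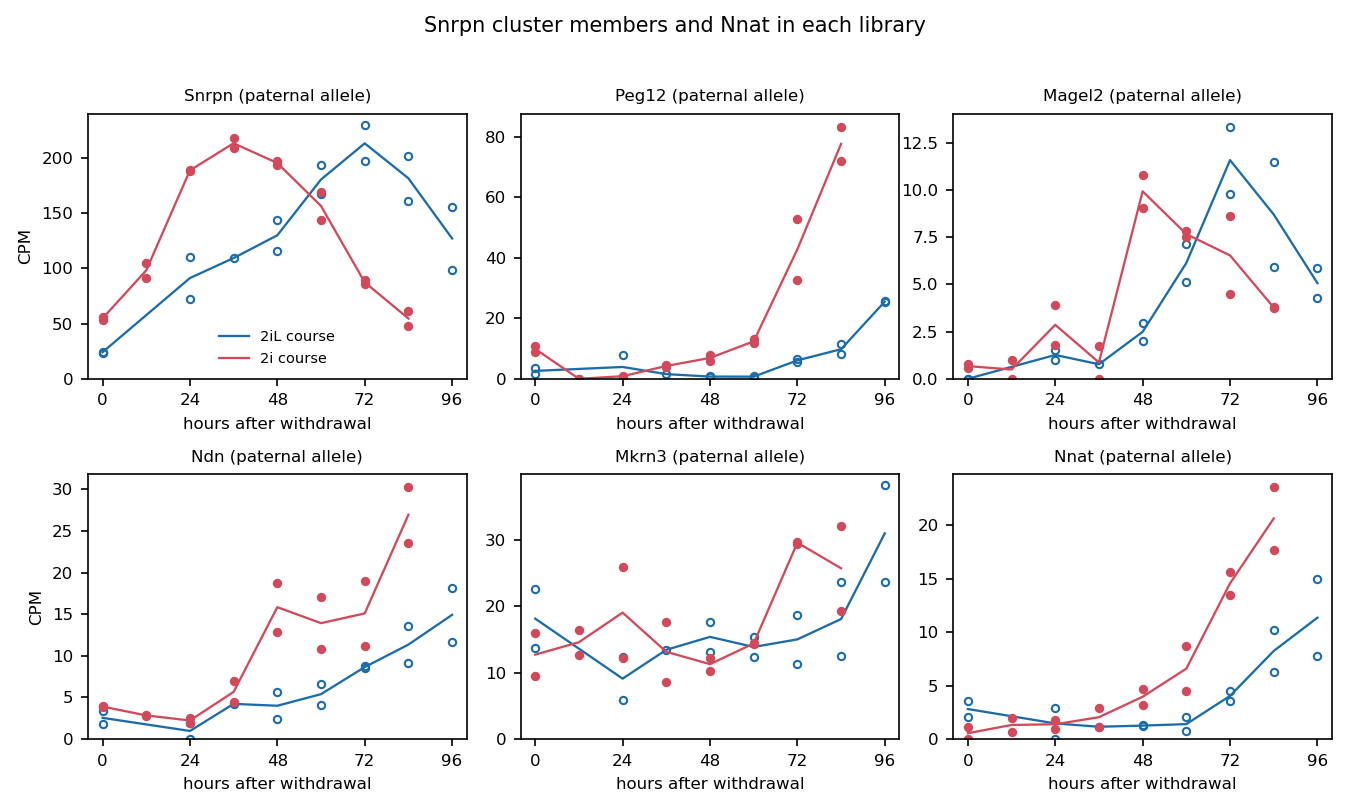
Levels of the 5 Snrpn cluster members and of Nnat in each library, in CPM on axes that start at 0, against hours after withdrawal, with open blue points for the 2iL course, filled red points for the 2i course and lines through the group means. Snrpn rises and returns to 47.4 and 61.7 CPM at 84 h of the 2i course and is still at 98.7 and 155 CPM at 96 h of the 2iL course, while Peg12 and Nnat are highest at the last times.

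Ndn and Magel2, which encode MAGE family proteins of neurons, rose in both courses. Ndn was at 3.97 and 3.85 CPM in 2i at 0 h and at 30.3 and 23.6 CPM at 84 h (log2 change 2.76, SE 0.43, adjusted p = 7.7e-06), and at 3.33 and 1.77 CPM in 2iL at 0 h and 18.2 and 11.7 CPM at 96 h (log2 change 2.47, SE 0.49, adjusted p = 0.00014). Magel2 had 0 counts in both 2iL libraries at 0 h and was at 9.79 and 13.4 CPM at 72 h, at least 17.7-fold higher (adjusted p = 1.1e-06). In 2i it had 3 counts at 0 h and was at 9.05 and 10.8 CPM at 48 h, a ratio of 14.5 (95% counting interval 4.61 to 73.7, adjusted p = 0.00016). These were the times of its highest group means. At the last time Magel2 was at 3.79 and 3.75 CPM (84 h of 2i) and at 5.85 and 4.28 CPM (96 h of 2iL), below those libraries, while the highest group mean of Ndn came at the last time of each course. Mkrn3, a ring finger gene whose variants affect the timing of puberty, lay between 5.86 and 38.3 CPM. Its joint test over the 2i course gave an adjusted p of 0.028, which 4 of the fits that leave out 1 library did not keep (2i 48 h replicate 2, 72 h replicates 1 and 2, and 84 h replicate 1, adjusted p between 0.0578 and 0.0882), and that over the 2iL course gave 0.052.

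Of the Kcnq1 cluster, Cdkn1c was the member that differed firmly at 0 h. Cdkn1c, a maternally expressed inhibitor of cyclin-dependent kinases, was at 3.75 and 3.54 CPM in 2iL and at 24.6 and 15.9 CPM in 2i (log2 difference 2.48, SE 0.37, adjusted p = 1.7e-05). In the 2iL course it rose to 17.8 and 13.7 CPM at 24 h (log2 change 2.10, SE 0.42, adjusted p = 0.00072) and to 29.9 and 36.6 CPM at 96 h (log2 change 3.18, SE 0.35, adjusted p = 1.2e-08). After withdrawal from 2i it was between 11 and 23.9 CPM from 12 to 48 h and reached 44.2 and 65.4 CPM at 84 h (log2 change 1.41, SE 0.26, adjusted p = 8.5e-05). The change over the shared times differed between the courses (joint adjusted p = 3.5e-06), and at 72 h Cdkn1c was 1.33 higher in the 2i course (SE 0.28, adjusted p = 0.0011). The gap of 0 h was not held in between, since the libraries overlapped at 24 h and the 2i libraries of 36 h (11.5 and 11 CPM) lay below the single 2iL library (32.3 CPM).

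Ascl2, a maternally expressed transcription factor of the trophoblast, had 2 counts in 2iL and 20 in 2i at 0 h, at 0 and 0.886 CPM against 3.97 and 5.49 CPM. The ratio was 10.7 (95% counting interval 2.61 to 94.8, adjusted p = 0.030). The call was lost on leaving out 2iL 0 h replicate 1 (adjusted p = 0.323), on leaving out 2i 0 h replicate 1 (adjusted p = 0.075) or replicate 2 (adjusted p = 0.137), and with DESeq2 (adjusted p = 0.0828). The 10 trophoblast markers, of which Ascl2 is 1, summed to 173 and 181 CPM in 2iL and to 226 and 246 CPM in 2i at 0 h, with 7 of 10 having counts and Tpbpa at 3 or fewer counts in all libraries; their part in the difference was not tested. Over the 2iL course Ascl2 was at 7.73 and 4.88 CPM at 24 h and at 2.6 and 0.778 CPM at 96 h, and it changed by the joint test (adjusted p = 0.0092), which 2iL 0 h replicate 1 decided (adjusted p = 0.0542 without it). Phlda2, a maternally expressed restrainer of placental growth, was at 11.2 and 12.4 CPM in 2iL and at 9.13 and 6.04 CPM in 2i at 0 h, and changed over the 2i course by the joint test (adjusted p = 0.0084), with 1.47 and 2.15 CPM at 24 h. Kcnq1ot1, the paternally expressed noncoding RNA of the cluster, lay between 32.3 and 113 CPM and passed the joint test over neither course (adjusted p = 1 and 0.91). Its libraries disagreed within groups, at 113 and 32.3 CPM at 84 h of the 2iL course, so a change could be missed.

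The Dlk1-Meg3 cluster was carried by its maternally expressed noncoding RNAs. Meg3 was at 1178 and 999.7 CPM in 2iL and at 1184 and 969 CPM in 2i at 0 h, with overlapping groups (log2 difference -0.02, SE 0.27). In the 2i course it rose to 3150 and 2637 CPM at 48 h (log2 change 1.43, SE 0.28, adjusted p = 0.00022) and was at 1749 and 988 CPM at 84 h. After withdrawal from 2iL it rose to 3492 and 2228 CPM at 72 h (log2 change 1.39, SE 0.28, adjusted p = 0.00019) and was at 3204 and 2422 CPM at 96 h. The change over the shared times differed between the courses (joint adjusted p = 0.0025). Meg3 was higher in replicate 1 than in replicate 2 in 12 of the 15 groups with 2 libraries.

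Mirg, a host transcript of microRNAs downstream of Meg3 on the same strand, rose in both courses and was lower again at their ends. It was at 197 and 169 CPM in 2i at 0 h, at 443 and 364 CPM at 36 h and at 123 and 76.2 CPM at 84 h (log2 change from 0 h -0.88, SE 0.21, adjusted p = 0.0016). The fall below 0 h at 84 h was not kept on leaving out 2i 84 h replicate 2 (log2 change -0.55, adjusted p = 0.106). In 2iL Mirg was at 167 and 155 CPM at 0 h, at 504 and 404 CPM at 72 h (log2 change 1.5, SE 0.20, adjusted p = 6.6e-07) and at 199 and 201 CPM at 96 h. Its highest group mean came at 36 h in the 2i course, where the libraries of 24 h (307 and 417 CPM) overlapped those of 36 h. In the 2iL course it came at 72 h, where the libraries of 84 h (418 and 288 CPM) overlapped those of 72 h. At 72 h Mirg was 1.45 lower in the 2i course on the log2 scale (SE 0.21, adjusted p = 7.3e-06). Over the 31 libraries the correlation of Meg3 with Mirg was 0.71 (Spearman 0.72).

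RefSeq places 14 microRNA hairpins wholly within Mirg, 1 within Meg3 (miR-770) and 1 within Mest (miR-335), all on the strand of the host, and the mature miR-1906 also lies within Meg3. The poly(A) libraries count the hosts and not these small RNAs. Examples from these hosts are given with their seed, bases 2 to 8, in capitals, as a guide to which small RNAs lie in the counted transcripts, and no seed is shared among the 4.
mmu-miR-134-5p (Mirg): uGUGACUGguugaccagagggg
mmu-miR-410-3p (Mirg): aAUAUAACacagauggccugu
mmu-miR-770-5p (Meg3): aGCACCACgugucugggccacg
mmu-miR-335-5p (Mest): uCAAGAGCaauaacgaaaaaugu

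Dlk1, the paternally expressed growth factor-like gene of this cluster, stayed near the limit of detection. It had 1 count in each of both 0 h groups. In the 2iL course it was at 5.71 and 5.14 CPM at 72 h, a ratio of 25.4 (95% counting interval 4.15 to 1046, adjusted p = 0.0012). After withdrawal from 2i it was at 3.68 and 3.72 CPM at 72 h, a ratio of 16.1 (95% counting interval 2.33 to 691, adjusted p = 0.013), which was not kept on leaving out 2i 0 h replicate 1 (adjusted p = 0.161) or 2i 72 h replicate 1 (adjusted p = 0.0549). Rtl1, the paternally expressed retrotransposon-derived gene antisense to maternal microRNAs, had 12 counts in 9 libraries and was not tested.

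**Figure D4:**
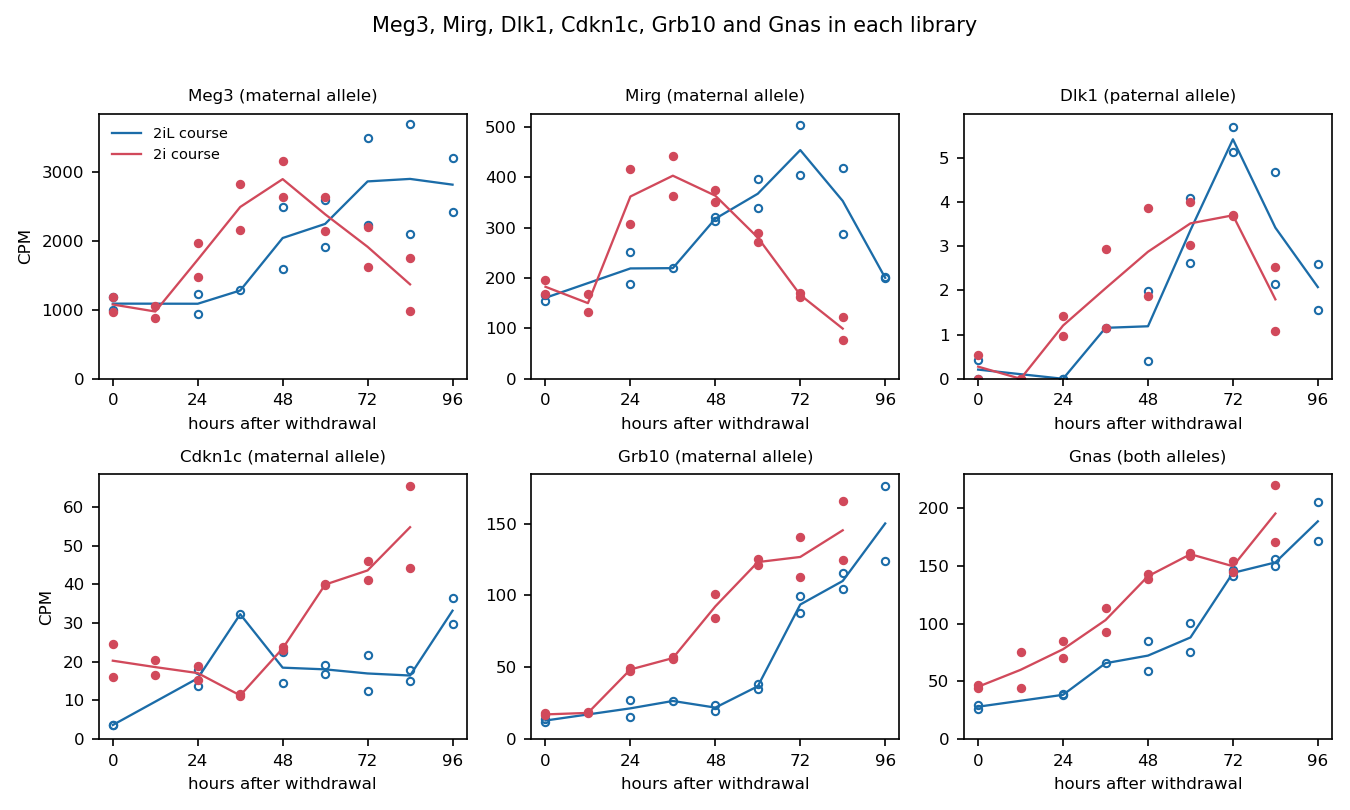
Levels of Meg3, Mirg, Dlk1, Cdkn1c, Grb10 and Gnas in each library, in CPM on axes that start at 0, against hours after withdrawal, with open blue points for the 2iL course, filled red points for the 2i course and lines through the group means. The group mean of Mirg is highest at 36 h in the 2i course (443 and 364 CPM) and at 72 h in the 2iL course (504 and 404 CPM), with libraries that overlap those of a neighbouring time. Grb10 and Gnas rise in both courses.

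Grb10 and Gnas rose in both courses. Grb10, which encodes an adaptor that dampens insulin and growth factor receptors, was at 11.7 and 14.2 CPM in 2iL and at 17.9 and 16.5 CPM in 2i at 0 h. It was at 101 and 84.0 CPM at 48 h of the 2i course (log2 change 2.41, SE 0.23, adjusted p = 2.3e-09) but at 19.8 and 24.1 CPM at 48 h of the 2iL course, and by 84 h it was at 125 and 166 CPM and at 116 and 104 CPM. The difference in change over the shared times passed the joint test (adjusted p = 8.4e-05), and at 72 h it was -0.02 and at 84 h 0.01. Gnas, the gene of the stimulatory G protein alpha subunit, was at 29.97 and 26.1 CPM in 2iL and 44.1 and 46.7 CPM in 2i at 0 h, and at 172 and 205 CPM at 96 h of the 2iL course (log2 change 2.75, SE 0.22, adjusted p = 1.4e-11) and 171 and 220 CPM at 84 h of the 2i course (log2 change 2.11, SE 0.21, adjusted p = 2e-09). Its difference between the courses did not pass (joint adjusted p = 0.079). Gnas counts pool transcripts from several starts, maternal, paternal and from both alleles.

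Zdbf2, a paternally expressed zinc finger gene whose imprint is set up by an upstream transcript in the early embryo, was at 42.9 and 43.4 CPM in 2iL and at 87.0 and 78.0 CPM in 2i at 0 h. The difference of 0.94 (SE 0.21, adjusted p = 0.0032) was lost on leaving out 2i 0 h replicate 1 (adjusted p = 0.0609). Zdbf2 reached 282 and 253 CPM at 72 h of the 2i course (log2 change 1.69, SE 0.20, adjusted p = 6e-08) and 255 and 196 CPM at 84 h of the 2iL course, and at 72 h it was 0.99 higher in the 2i course (SE 0.19, adjusted p = 0.00052). Nnat, a paternally expressed membrane protein gene of neurons, had 2 counts in 2i, both in replicate 2, and 13 in 2iL at 0 h. It was at 17.7 and 23.6 CPM at 84 h of the 2i course, a ratio to 0 h of 45.3 (95% counting interval 12.1 to 381, adjusted p = 1e-06), and at 14.9 and 7.78 CPM at 96 h of the 2iL course. Nnat lies within an intron of Blcap on the opposite strand, which had 1667 counts. Impact, a paternally expressed regulator of translation, lay between 53.9 and 147 CPM and was 0.90 higher in the 2i course at 72 h (SE 0.16, adjusted p = 0.00027).

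Calls below 0 h were fewer than calls above it at most times. At 24 h of the 2i course 7 members were higher (8.47% of all genes) and 5 lower (8.86%), and at 48 h of the 2iL course 13 were higher (14.7% of all genes) and 6 lower (14.4%). Plagl1, a paternally expressed zinc finger gene placed at the centre of a network of imprinted genes, was at 10.8 and 5.76 CPM in 2iL at 0 h and had 0 counts in both libraries of 60 h, at least 12.9-fold lower (adjusted p = 0.00039). In 2i it was at 3.18 and 3.30 CPM at 0 h and at 0 CPM in both 72 h libraries, at least 3.20-fold lower (adjusted p = 0.027). That call was lost whichever of the 4 libraries was left out (adjusted p between 0.0528 and 0.152) and with DESeq2 (adjusted p = 0.0597). Slc38a4, a paternally expressed amino acid transporter gene, was the only member called lower in 2i at 0 h, at 27.8 and 21.4 CPM against 48.3 and 50.1 CPM (log2 difference -0.98, SE 0.26, adjusted p = 0.014). The call was lost on leaving out 2iL 0 h replicate 1 (adjusted p = 0.0751) or 2 (adjusted p = 0.0809) and on leaving out 2i 0 h replicate 2 (adjusted p = 0.175). Slc38a4 was at 47.3 and 47.0 CPM at 12 h of the 2i course and at 17.2 and 14 CPM at 84 h of the 2iL course, and it changed over both courses by the joint test (adjusted p = 9.1e-05 and 0.00052).

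Of the other members, Mcts2 and Commd1 passed the joint test over neither course, while Zrsr1 and Igf2r passed it over both. Mcts2, a retrogene within an intron of H13, lay between 8.93 and 30.9 CPM and passed no joint test (adjusted p = 0.075 in 2i and 0.94 in 2iL). Commd1, maternally expressed in brain, lay between 2.6 and 28.3 CPM and passed none either (adjusted p = 0.65 and 0.19). Zrsr1, the paternally expressed splicing factor gene inside Commd1, lay between 30.3 and 78.4 CPM and changed over both courses (joint adjusted p = 0.0013 in 2i and 0.0063 in 2iL). Trappc9, a vesicle transport gene, lay between 7.89 and 44.2 CPM and passed the joint test in 2iL (adjusted p = 0.042) but not without the 2iL course libraries of 0 h replicate 1, 24 h replicate 1, 60 h, 72 h or 96 h replicate 1 (adjusted p between 0.0554 and 0.172). Igf2r, the maternally expressed receptor that clears IGF2, was at 59.9 and 33.2 CPM in 2iL and at 55.6 and 44.5 CPM in 2i at 0 h and changed over both courses (joint adjusted p = 0.00011 in 2iL and 4.9e-05 in 2i), with 22.1 and 23.3 CPM at 24 h and 82.7 and 68.1 CPM at 84 h of the 2i course.

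The textbook pair H19 and Igf2 stayed near the limit of detection. H19, the maternally expressed noncoding RNA, had 50 counts in all 31 libraries and at most 2.56 CPM in any. Igf2, the paternally expressed fetal growth factor, had 9 counts in 6 libraries. Airn, the noncoding RNA that silences Igf2r on the paternal copy, had 22 counts and Slc22a18, a transporter gene next to Cdkn1c, had 48. The 7 members below the filter (Asb4, Zim1, H19, Igf2, Slc22a18, Rtl1 and Airn) were not tested, which is no statement that they were absent or did not differ. By counting error alone, Asb4 had 1 count at 0 h and 9 at 84 h of the 2i course, a ratio of 11.3 (95% counting interval 1.57 to 496). Slc22a18 had 9 counts at 0 h and 0 at 48 h of the 2iL course, at least 3.56-fold lower with the 9 counts taken as exact.

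Over time, most tested members changed. The share of all tested genes past the threshold, against which single calls can be read, was 17.3%, 17.5%, 20.2%, 24.1% and 33.2% at 24, 36, 48, 60 and 84 h of the 2i course. It was 10.8%, 29.1%, 27.7%, 34.8% and 39.5% at 36, 48, 60, 84 and 96 h of the 2iL course. For the difference in change between the courses it was 3.08%, 3.13%, 9.17%, 10.3%, 9.80% and 11.3% at 24, 36, 48, 60, 72 and 84 h. By the joint test over the 7 times of a course 25 of 31 changed in the 2i course, against 52.3% of all tested genes, and 27 of 31 in the 2iL course, against 56.5%. Among paternally expressed members these were 17 and 16 of 19, and among maternally expressed members 7 and 10 of 11. At 72 h of the 2i course 17 members had changed, against 28.2% of all tested genes. Of these, 15 were higher than at 0 h, against 14.1% of all genes, and 2 were lower (Peg10 and Plagl1), against 14.2%. The count fell to 10 on leaving out 2i 72 h replicate 1. At 72 h of the 2iL course 18 had changed, against 28.8% of all genes, 16 higher (14.6% of all genes) and 2 lower (Plagl1 and Zrsr1, 14.1% of all genes).

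**Figure D5:**
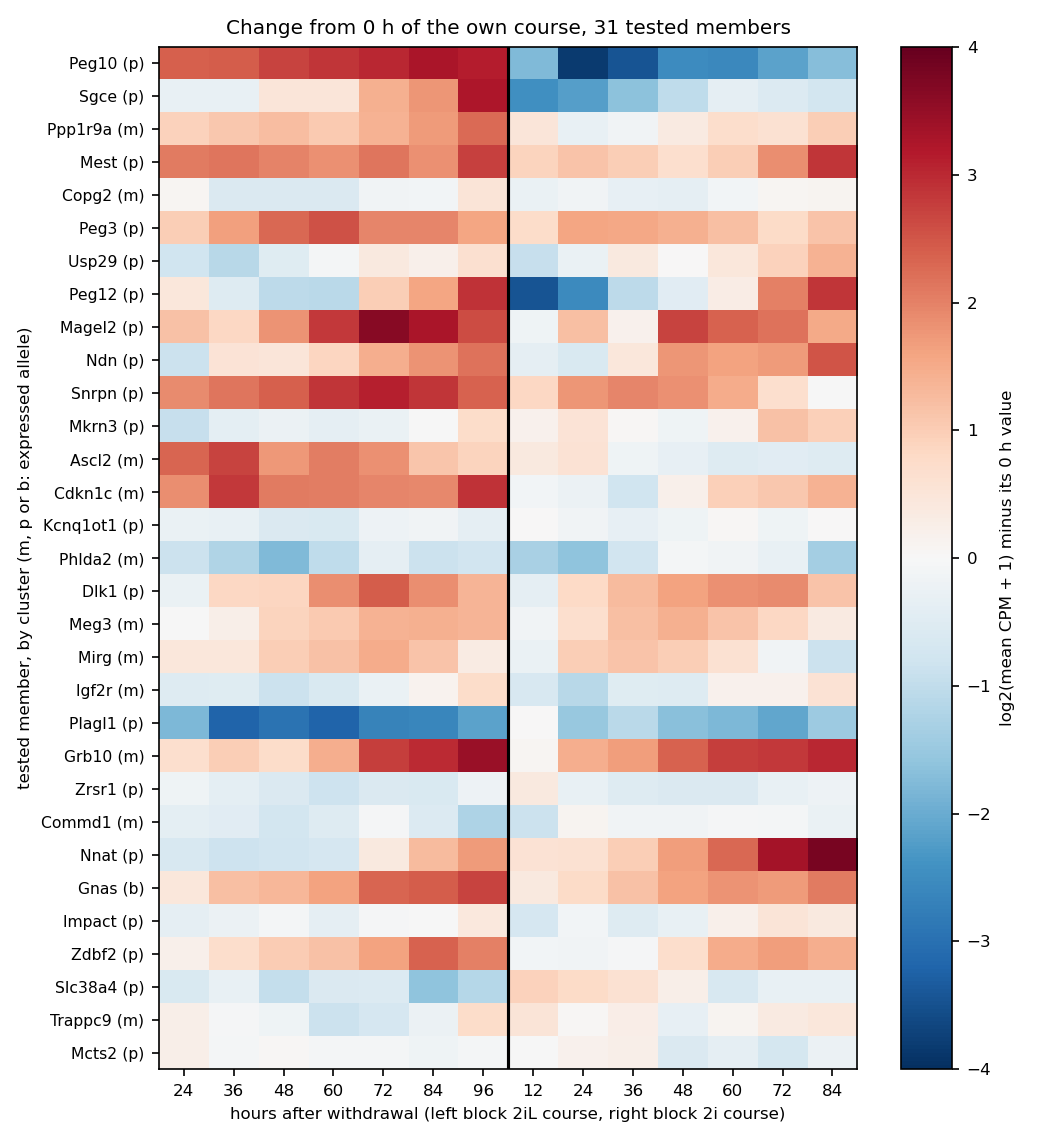
Change of each tested imprinted gene from 0 h of its own course, drawn as log2(mean CPM + 1) minus the same at 0 h, by hours after withdrawal, with the 2iL course in the left block and the 2i course in the right. Red is higher and blue lower than at 0 h; the Peg10 row is red throughout the 2iL course and blue throughout the 2i course, and Grb10, Gnas and Zdbf2 are red at the later times of both. Snrpn is red at every later time of the 2iL course but is back near 0 at 84 h of the 2i course.

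At 72 h of the 2i course 11 paternally expressed members were higher and 2 lower, and 3 maternally expressed members were higher and none lower, with medians over tested members of 0.78 and 0.17 on the log2 scale. The calls of Cdkn1c, Dlk1, Impact, Magel2, Meg3, Mkrn3, Ndn, Plagl1 and Snrpn were each lost in some fit that left out 1 library. At 72 h of the 2iL course 9 paternally expressed members were higher and 2 lower, and 6 maternally expressed members were higher and none lower, with medians of 1.23 and 1.39. Here the calls of Ascl2, Ndn, Ppp1r9a, Sgce and Zrsr1 were each lost in some such fit. The median of all tested genes at 72 h was -0.01 in the 2i course and 0.02 in the 2iL course. At 12 h of the 2i course 8 of 31 members had changed, against 10.8% of all tested genes, all of them paternally expressed (4 higher, against 5.43%, and 4 lower, against 5.37%). Peg10 and Peg12 were the 2 of these 8 calls kept whichever library of the 0 and 12 h groups was left out. Members passed the filter partly through the groups where they are high, so these shares describe the tested members and do not extend to the 40.

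The change from 0 h differed between the courses for 14 of 31 members by the joint test over 6 shared times, against 22.5% of all tested genes. Both sets of changes start from their own 0 h, so a gene that differs at 0 h enters this test with that difference. Of the 14, 5 are listed as maternally expressed (Cdkn1c, Grb10, Meg3, Mirg and Phlda2) and 9 as paternally expressed. At 72 h itself 8 of 31 members differed between the courses, against 12.2% of all genes. Higher in the 2i course were Peg12, Nnat, Cdkn1c, Mest, Zdbf2 and Impact (5.96% of all genes were higher), and lower were Mirg and Snrpn (6.26% of all genes were lower). The Nnat call was lost whichever of the 4 libraries was left out (adjusted p between 0.0833 and 0.139), and the other 7 were kept. The count was 13 when 4 libraries that stand apart from their partners (2iL 48 h replicate 1, 84 h replicate 2 and 96 h replicate 1, and 2i 12 h replicate 2) were left out.

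Genes of imprint maintenance and DNA methylation were followed as a list of 19, all tested. It holds readers, writers and the Tet genes, which remove methylation, so its counts do not describe a single function. At 12 h of the 2i course 9 were higher than at 0 h (5.43% of all tested genes) and 1 lower (5.37%). At 24 h of the 2iL course, where 11.6% of all tested genes had changed (5.65% higher and 5.92% lower), 8 were higher and 1 lower. Among the 31 imprinted genes 6 were higher and none was lower at that time. At 72 h of the 2i course 1 of the 19 was higher (14.1% of all tested genes) and 10 were lower (14.2%). At 72 h of the 2iL course 5 of the 19 were higher (14.6%) and 8 lower (14.1%). Zfp57 itself was at 40.4 and 35.4 CPM in 2iL and 43.7 and 38.5 CPM in 2i at 0 h. It rose by 1.49 at 12 h of the 2i course (SE 0.29) and then fell, to 4.91 and 2.98 CPM at 72 h (log2 change from 0 h -3.34, SE 0.45). After withdrawal from 2iL it was at 85.1 and 74.2 CPM at 24 h and at 7.75 and 5.65 CPM at 72 h (log2 change -2.47, SE 0.37). The methyltransferase genes Dnmt3a, Dnmt3b and Dnmt3l were higher in 2i than in 2iL at 0 h, by 2.38 (SE 0.19), 2.26 (SE 0.17) and 3.64 (SE 0.23), and lower in the 2i course at 72 h (log2 differences -2.04, -2.55 and -3.84). Their relation to the imprinted genes was not tested.

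Other genes known to be imprinted in mouse or lying beside the clusters gave 30 tested genes of 48 listed. At 0 h 3 were higher in 2i (3.75% of all tested genes) and 3 lower (4.24%). Among them Casd1, which follows Sgce in the Peg10 region, was at 7.91 and 8.42 CPM in 2iL and at 16.7 and 24.2 CPM in 2i (log2 difference 1.30, SE 0.39). At 72 h of the 2i course 2 were higher than at 0 h (14.1% of all tested genes) and 8 lower (14.2%). At 72 h of the 2iL course 4 were higher (14.6%) and 8 lower (14.1%). The members' own counts at that time were 15 higher and 2 lower, and 16 higher and 2 lower.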

How the data were processed

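RNA of 32 libraries of E14 cells was measured by sequencing the 3' ends of poly(A) RNA (NEGEDIA Digital mRNAseq, per the labels' protocols), and 31 libraries in 16 groups were used. Per the submitters' processing notes, the tools were HTSeq, bcl2fastq and STAR 2.6.0a, and the build was mm10; the annotation release and the strand setting are not given in the sources used here. The authors deposited whole-number counts of uniquely aligned reads per Ensembl gene, 1 file per library with 5 summary lines of reads outside genes, which were left out of library sizes and tests (reads outside genes made up 23.8% to 55.6% of uniquely aligned reads). The deposited CPM table differed from counts scaled to 1000000 by at most 4.66e-10 and was used only for this check. Gene names and positions came from GENCODE M21 (mm10), which names 31011 of 31053 genes, and promoter windows and microRNAs from RefSeq (GRCm38.p6).

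The library of 2iL at 36 h with 7298 counts was left out and put back as an alternative. Tests used edgeR 4.0.16 in R 4.3.3: TMM normalisation, filterByExpr by group, and the quasi-likelihood test in a single fit of the 31 libraries with a coefficient per group (15 residual degrees of freedom, common dispersion 0.0213), with Benjamini-Hochberg adjustment over 12556 genes and a threshold of 0.05. The fit was tested on simulated data. SE is the log2 fold change divided by the square root of F. Against 0 counts a fold is a lower bound from 3 counts over the group, with the higher count taken as exact. Against 1 to 3 counts it is a ratio of counts with a 95% exact Clopper-Pearson interval. Time in culture goes with every change from 0 h, since no library of cells kept in their medium was analysed at later times, and all times of a course share the same 0 h libraries. Replicate numbers come from the labels and no pairing is stated. Alternatives were DESeq2 1.42.0, RLE size factors, no filter, all 32 libraries, fits of only the libraries compared, a replicate block, leaving out 4 libraries that stand apart, and leaving out each library in turn. The members, the gene lists and the comparisons were chosen with earlier results of these data known, so that no pattern is independent evidence. Named genes are all 40 members, plus the list members whose values are given as examples, which were picked after their values were seen.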

Additional observations from a re-analysis of the deposited data

Results flagged for a closer look

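For 14 imprinted genes the change from 0 h over the 6 shared times (24 to 84 h) differed between the 2iL and the 2i course by the joint edgeR test of that difference, with p adjusted over all tested genes. The adjusted p was 6.4e-10 for Peg10, 1.7e-09 for Snrpn, 3e-08 for Mirg, 1.2e-06 for Mest, 2.4e-06 for Peg3, 3.5e-06 for Cdkn1c and 8.4e-05 for Grb10. It was 0.0025 for Meg3, 0.0074 for Peg12, 0.0086 for Slc38a4, 0.0097 for Zdbf2, 0.017 for Magel2, 0.024 for Impact and 0.038 for Phlda2. Of all tested genes 22.5% passed the same test. The first 8 of these genes, with Slc38a4 and Zdbf2, passed whichever library was left out. Peg12 was not kept without 2iL 24 h replicate 2 (adjusted p = 0.26), Magel2 without 2i 48 h replicate 2 (adjusted p = 0.0622) and Impact without 2i 48 h replicate 1 (adjusted p = 0.0543). Phlda2 was lost in 16 fits that each leave out a library, with adjusted p from 0.0504 to 0.129.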

How the results depend on the processing

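Counts of imprinted genes past the threshold stayed within 1.5 times of those reported under RLE size factors, DESeq2, no filter, the shallow library kept and fits of only the libraries compared. When the 4 libraries that stand apart were left out, the count at 72 h between the courses was 13 in place of 8, and the cause was not tested. Leaving out 1 library at a time gave 5 to 8 genes for 2i against 2iL at 0 h (10 with all), 23 to 26 for the 2i course (25) and 26 to 29 for the 2iL course (27). It gave 10 to 14 at 72 h of the 2i course (17), 12 to 16 at 72 h of the 2iL course (18), 12 to 15 for the difference between courses (14) and 7 in every fit for the gap at 72 h (8). Such a fit takes the remaining library of a group to vary like the other groups. No pairing by replicate number is stated. Of 105 pairs of groups 25 had a correlation of deviations over 0.1 (range -0.724 to 0.805, median 0.0196), which cannot settle whether libraries are paired. With a replicate block the counts were 10, 25, 27, 17, 18, 14 and 8, the same as with no block. Differences at 0 h that did not pass the test changed sign among these fits for Meg3 (-0.18 to 0.12), Igf2r (-0.28 to 0.59), Copg2 (-0.094 to 0.097), Dlk1 (-2.13 to 2.21), Commd1 (-0.57 to 0.14) and Usp29 (-0.64 to 0.24). The difference between courses for Peg12 at 24 h was 3.89 and ranged from -1.94 to 4.99; the negative value came when 2iL 24 h replicate 2 was left out, and the other library of that group had 0 counts. Among single-gene values, DESeq2 kept 336 on their side of the threshold and lost 46, and leaving out 1 library kept 2174 and lost 366. The depth, with a limit of 0.872 to 2.67 CPM for a count of 0, left 7 matched members untested.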

Other observations

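Sfmbt2, a polycomb gene that is imprinted in the placenta, and Dio3, which encodes an enzyme that inactivates thyroid hormone and lies at the far end of the Dlk1-Meg3 region, were chosen after their values were seen. Sfmbt2 was at 31.2 and 27.9 CPM in 2iL and at 109 and 99.999 CPM in 2i at 0 h, 1.82 higher on the log2 scale (SE 0.28, edgeR adjusted p = 2.4e-05). It fell by 2.73 at 12 h (SE 0.33) and by 3.46 at 72 h of the 2i course (SE 0.34), and by 2.19 at 72 h of the 2iL course (SE 0.37). Dio3 fell by 2.95 at 72 h of the 2iL course (SE 0.73, edgeR adjusted p = 0.0023), from 12.5 and 12.8 CPM to 2.04 and 1.03 CPM. It was already at 0.385 CPM in the single 2iL library of 36 h. In the 2i course Dio3 was at 9.13 and 8.79 CPM at 0 h and at 0.614 and 0.744 CPM at 72 h. Meg3 and Mirg were above 0 h at 72 h of the 2iL course. At 72 h of the 2i course Mirg was not, at 163 and 170 CPM against 197 and 169 CPM at 0 h. Meg3 was at 2199 and 1625 CPM there, against 1184 and 969 CPM at 0 h.

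Kcnq1ot1 and Ppp1r9a, like Meg3, were higher in the library numbered 1 in 12 of the 15 groups with 2 libraries. Kcnq1ot1 was at 113 and 32.3 CPM at 84 h of the 2iL course and at 91.1 and 41.02 CPM at 60 h of the 2i course. The share of reads outside genes was higher in the library numbered 1 in 6 of the same 15 groups, and total counts in 10. The members with these counts were picked from all 38 after the values were seen.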
